A study of Mus musculus with 10 samples.

Results

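Accessible chromatin after 3 days of forskolin was compared with that of control cells in fat cells made in culture from MAP cells, a mouse line of immortalized adipocyte progenitors. The comparison took 4 of the 10 ATAC-seq libraries of the series, S7 and S8 from the group labelled FSK3D and S1 and S2 from the group labelled Control, and covered all peaks of the deposited count table. FSK3D cells received forskolin for 3 days, starting from mature adipocytes at day 7 to 8, and Control cells received vehicle. The series also holds 2 libraries each for 4 hours of forskolin (FSK4h), 1 day of forskolin (FSK1D) and 3 days of rosiglitazone (Rosi3D). The filter, the scaling and the spread behind each p-value were estimated over all 10 libraries in 1 fit. The levels of FSK4h, FSK1D and Rosi3D are given only where these groups are named. All groups, Control included, had been differentiated with insulin, 500 uM isobutylmethylxanthine, 1 uM dexamethasone and 1 uM rosiglitazone for 2 days, and then with insulin and 1 uM rosiglitazone for 2 more days. Isobutylmethylxanthine blocks phosphodiesterases and so raises cAMP, and rosiglitazone is a PPARγ agonist, so both pathways had been stimulated in every group before treatment. The labels call the cells adipocyte progenitors, although treatment followed differentiation. They name 1 cell line and give neither the forskolin dose nor the origin of each library (separate cultures or one). The p-values therefore measure the spread between libraries within the groups of the series, which may be technical. Each library was made from 10000 sorted nuclei. Of 122984 peaks in the table, 118954 passed the filter on low counts and were tested.

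In ATAC-seq a transposase cuts open DNA, so the count of reads at a site rises with how often that site is open in the nuclei sampled. Forskolin activates adenylyl cyclase directly. The cAMP that results activates protein kinase A (PKA), which phosphorylates CREB and the lipolytic machinery. In adipocytes this is the pathway of β-adrenergic receptors, and it drives lipolysis and the thermogenic program of brown and beige fat, in which PGC-1α (Ppargc1a) and the uncoupling protein UCP1 take part. The pathway restrains itself, since cAMP is broken down by phosphodiesterases such as those of the Pde4 family and sustained signalling lowers the response of the receptors. The labels give the browning of adipocytes as the purpose of the treatment.

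The sequences of 6 gene starts show the range of start sites that changed: 3 whose peak rose (Cdyl, Bpifc and Lcn2) and 3 whose peak fell (Tmem182, Adipoq and Ifit3b). The choice was made with these values in view. Each line holds the 250 bases before a start site listed by RefSeq, build GRCm38.p6, written 5′ to 3′ on the strand of the gene. Capitals mark matches to the short motifs searched: the AP-1 letters TGANTCA in Cdyl, Bpifc and Ifit3b, and the interferon response motif at 2 places in Ifit3b. A line without capitals held no match to any motif searched.

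Cdyl (chr13:35659612-35659861, plus strand): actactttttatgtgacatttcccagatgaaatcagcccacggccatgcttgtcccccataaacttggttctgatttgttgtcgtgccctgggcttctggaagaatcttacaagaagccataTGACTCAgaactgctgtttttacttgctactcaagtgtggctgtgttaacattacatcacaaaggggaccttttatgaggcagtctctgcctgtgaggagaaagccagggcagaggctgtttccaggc
Bpifc (chr10:86011861-86012110, minus strand): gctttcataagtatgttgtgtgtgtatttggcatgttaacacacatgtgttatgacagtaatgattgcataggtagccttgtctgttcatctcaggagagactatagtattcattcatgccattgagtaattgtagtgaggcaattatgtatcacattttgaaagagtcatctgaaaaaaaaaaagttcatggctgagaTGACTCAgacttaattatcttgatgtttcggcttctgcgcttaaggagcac
Lcn2 (chr2:32387740-32387989, minus strand): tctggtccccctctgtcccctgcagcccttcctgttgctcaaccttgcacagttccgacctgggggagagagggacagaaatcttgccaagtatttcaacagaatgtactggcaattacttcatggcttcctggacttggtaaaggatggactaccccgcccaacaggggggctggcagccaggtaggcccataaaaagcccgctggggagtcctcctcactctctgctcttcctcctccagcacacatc
Tmem182 (chr1:40805351-40805600, plus strand): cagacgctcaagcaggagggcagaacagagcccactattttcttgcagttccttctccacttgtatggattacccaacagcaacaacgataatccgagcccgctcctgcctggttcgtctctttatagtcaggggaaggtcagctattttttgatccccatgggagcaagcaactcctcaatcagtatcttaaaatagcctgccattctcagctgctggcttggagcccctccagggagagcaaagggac
Adipoq (chr16:23146286-23146535, plus strand): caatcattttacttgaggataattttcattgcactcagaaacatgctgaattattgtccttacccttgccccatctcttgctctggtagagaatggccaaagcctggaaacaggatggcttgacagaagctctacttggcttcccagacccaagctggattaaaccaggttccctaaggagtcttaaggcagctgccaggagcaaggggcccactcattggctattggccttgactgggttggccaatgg
Ifit3b (chr19:34607707-34607956, plus strand): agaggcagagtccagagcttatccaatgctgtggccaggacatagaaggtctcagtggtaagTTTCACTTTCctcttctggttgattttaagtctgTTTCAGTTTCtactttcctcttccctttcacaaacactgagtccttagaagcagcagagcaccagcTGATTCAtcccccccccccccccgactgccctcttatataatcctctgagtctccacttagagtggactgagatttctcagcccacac

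Levels are given as CPM, counts relative to the library size after TMM scaling. Cdyl encodes a chromatin protein that binds methylated histones, and the peak over this start site had 4.13 and 4.52 CPM in S7 and S8 (FSK3D), against 1.01 and 0.992 CPM in S1 and S2 (Control). The log2 fold change was 2.10 (SE 0.382), at an adjusted p = 3.55e-05. At Bpifc the peak had 2.83 and 2.77 CPM in FSK3D and 0.606 and 0.661 CPM in Control (2.13, SE 0.474, adjusted p = 7.83e-04). Lcn2 encodes lipocalin 2, an iron-siderophore-binding protein of the acute phase. Its start-site peak had 8.62 and 7.61 CPM in FSK3D, against 2.43 and 2.32 CPM in Control (1.78, SE 0.265, adjusted p = 5.46e-07). The start-site peak of Adipoq, the gene of the adipocyte hormone adiponectin, had 18.2 and 17.7 CPM in FSK3D and 30.0 and 32.7 CPM in Control (−0.80, SE 0.136, adjusted p = 8.91e-06). At Tmem182, a membrane protein gene of muscle and fat, the values were 3.01 and 2.93 CPM in FSK3D and 9.90 and 10.7 CPM in Control (−1.79, SE 0.227, adjusted p = 8.04e-09). Ifit3b is an interferon-induced gene, and its peak had 21.3 and 20.3 CPM in FSK3D and 37.7 and 39.3 CPM in Control (−0.89, SE 0.129, adjusted p = 2.74e-07). In all 6 cases the FSK3D libraries lay apart from both Control libraries, as they also did at 52.7% of all tested peaks.

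The libraries held 16287650 and 13031199 counts in peaks in FSK3D and 10410233 and 13055443 in Control. The FSK3D libraries were not alike in one respect. Peaks within 1 kb of a start site took 43.4% of counts in S7 and 47.3% in S8, against 47.5% in S1 and 49.0% in S2 of Control. A start-site peak was not particular to adipocyte markers. Of 5 neural or glial markers 4 had one, and all 5 summed to 233 and 236 CPM in FSK3D. So had 4 of 8 progenitor or fibroblast, 4 of 7 macrophage, 2 of 7 endothelial, 1 of 5 skeletal muscle and 1 of 4 epithelial markers tested. All 10 adipocyte markers, Adipoq, Pparg and Fabp4 among them, had one. Their peaks summed to 1000 and 1060 CPM in FSK3D and 1130 and 1230 CPM in Control. Of these markers 5 fell and none rose, and none of the 5 was called without S2. The 8 progenitor or fibroblast markers summed to 313 and 307 CPM in FSK3D and 323 and 312 CPM in Control, and none was called. Macrophage markers summed to 113 and 106 CPM in FSK3D and 102 and 96.7 CPM in Control, with 1 of 7 tested risen (Csf1r) and 1 fallen (Mrc1), and Adgre1 and Tyrobp had no tested peak. Of 7 endothelial markers 1 rose (Cdh5) and 1 fell (Emcn), of 5 skeletal muscle markers 1 rose (Pax7), of 4 epithelial markers 1 rose (Cdh1) and 1 fell (Krt8), and of 5 neural or glial markers none was called; Myod1 and Myf5 had no tested peak. The part of other cell types in the results was not tested.

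After 3 days of forskolin 10103 peaks were higher than in Control and 6351 were lower. Calls rest on edgeR's quasi-likelihood test with Benjamini-Hochberg adjustment across the whole table and a threshold of 0.05. The risen peaks were 8.49% and the fallen peaks 5.34% of those tested, 13.8% in all. On the log2 scale rises were also the larger changes among called peaks. Risen peaks started from lower Control levels, given below, and the part of level in this was not tested. The median log2 fold change was 1.25 among risen peaks and −0.87 among fallen peaks, and 6730 peaks rose and 2671 fell at least 2-fold. Risen peaks had a median of 4.80 CPM in FSK3D and 1.97 CPM in Control, and uncalled peaks one of 2.45 CPM in FSK3D and 2.39 CPM in Control. Fallen peaks had a median of 4.73 CPM in FSK3D and 9.0 CPM in Control, and were wider, at a median of 555 bp against 436 bp for risen and 350 bp for uncalled peaks. In bulk nuclei, fewer nuclei with an open site and a site open for less of the time cannot be told apart. The 2 libraries of FSK3D lay on 1 side of both Control libraries at 99.7% of called peaks, but also at 52.7% of all tested peaks. Of the peak calls, 61.4% were rises, and this share was 75.6% with library size alone and 57.8% once offsets were trended. Against 16454 calls with all libraries there were 8612 without S2, 8990 without S7 and 10757 without S1.

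Risen peaks lay away from gene starts. Only 281 of the 15321 tested peaks within 1 kb of a start site rose (1.83%), against 9.17% of peaks in gene bodies, 9.86% of peaks outside genes within 100 kb of one, and 9.60% of peaks farther away. Start-site peaks were 2.78% of risen peaks (95% Wilson interval 2.48 to 3.12), which covers counting error only, and 13.6% of uncalled peaks. This share was 2.62% to 3.25% when each library was left out in turn. Falls at start sites depended on the libraries. With all libraries 1103 start-site peaks fell (7.20%), 17.4% of all fallen peaks. Without S8 3758 start-site peaks fell and made up 48.8% of fallen peaks. Without S7 290 fell, 7.72% of fallen peaks, and without S2 221 fell, 7.47%. With trended offsets the share was 8.11%. The difference between S7 and S8 in the share of counts at start sites moved with these counts, and its part in them was not tested.

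**Figure D1:**
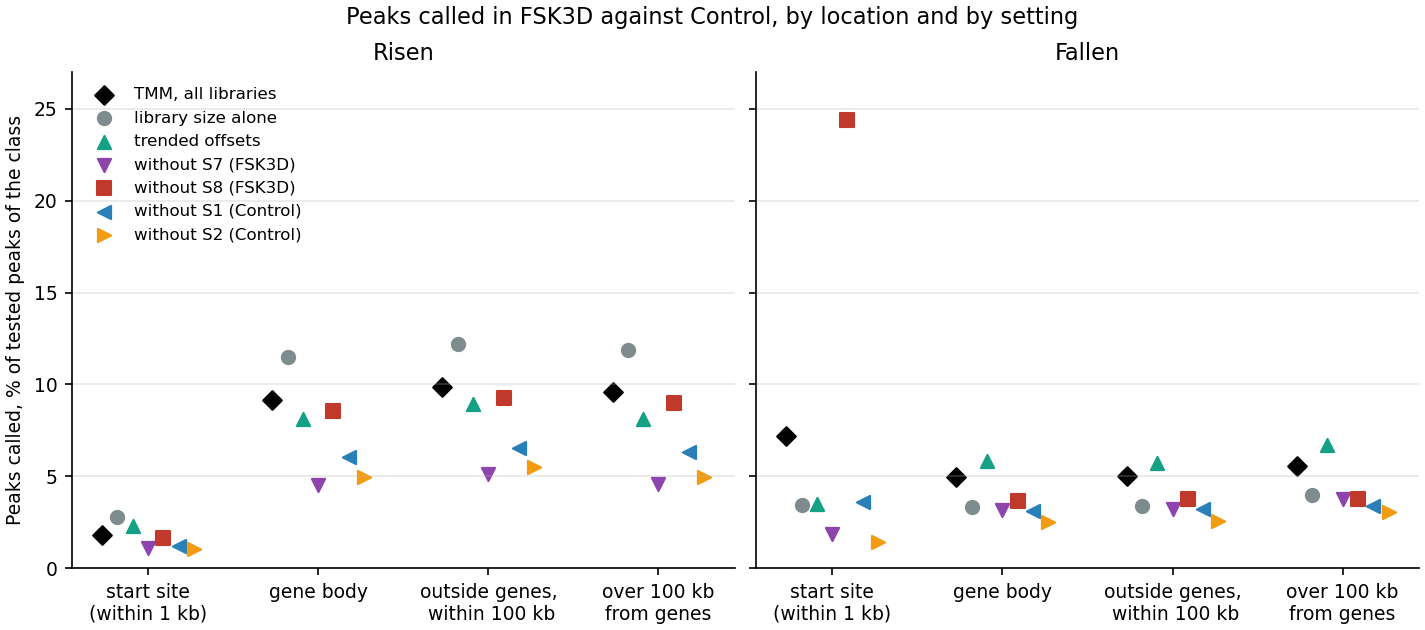
Share of the tested peaks of each location class that rose (left) or fell (right) in FSK3D against Control, in percent, with 1 symbol for each setting of the test. Rises are rarest at start sites in every setting shown (1.83% with all libraries), while the share of start-site peaks that fell ranges from 1.43% without S2 to 24.4% without S8.

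Peaks were ranked by fold change among called peaks whose libraries did not overlap between the groups and which were not below the median of all tested peaks in mean level, with at most 1 for each gene. The mean level was taken over all 10 libraries, so a peak low in Control could pass through its levels in the treated groups. Larger changes at peaks of lower level are left out of this ranking. The peaks it put first lay in gene bodies or between genes. Peaks are named here by the gene that holds them or by the nearest gene end, which does not show that they act on that gene. The peak that rose most in this ranking lay within Mitf (chromosome 6, 97921401 to 97921917), which encodes a transcription factor of the MiT/TFE family, known from melanocytes and from lysosome and autophagy genes. This peak had 5.96 and 4.36 CPM in S7 and S8 (FSK3D), against 0 and 0.165 CPM in S1 and S2 (Control). Both Control libraries together held 2 counts there, and the ratio of FSK3D to Control was 58.0, with a 95% exact interval of 15.8 to 483 for counting error only (adjusted p = 1.52e-12). Of the 31 tested peaks of Mitf 4 rose, among them a second body peak by 2.70, and 1 fell. The start-site peak of Mitf was not called.

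Among the other 9 of the 10 largest rises in the ranking, all log2 fold changes were between 3.24 and 3.84. A peak in the body of Slc25a15, the mitochondrial ornithine carrier (chromosome 8, 22390843 to 22391462), had 15.1 and 15.4 CPM in FSK3D and 1.82 and 0.579 CPM in Control (3.73, SE 0.276, adjusted p = 3.09e-17). One in the body of Fbln2, which encodes the matrix protein fibulin 2 (chromosome 6, 91267742 to 91268123), had 9.21 and 10.1 CPM in FSK3D and 0.404 and 1.07 CPM in Control (3.64, SE 0.336, adjusted p = 1.40e-13). A peak 3.33 kb outside Slc39a14, a zinc and iron importer (chromosome 14, 70354777 to 70355074), had 5.61 and 5.47 CPM in FSK3D and 0.303 and 0.496 CPM in Control (3.74, SE 0.426, adjusted p = 2.88e-10). At each of these sites both FSK3D libraries lay above both Control libraries, as the ranking required. The others lay in Gnl2 (3.84), a nucleolar GTPase gene, in Cnga3 (3.80), a cyclic nucleotide-gated channel gene of cone cells, and in Clip2 (3.28), and 23.0 kb from Ino80c (3.82), 28.9 kb from Bcl2l14 (3.33) and 23.2 kb from Txndc5 (3.24).

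The largest fall in the ranking was in the body of Adrb3, the β3-adrenergic receptor gene of adipocytes (chromosome 8, 27228222 to 27228751), with 1.59 and 0.713 CPM in FSK3D and 4.55 and 8.76 CPM in Control (−2.48, SE 0.347, adjusted p = 1.17e-07). A peak 25.9 kb from Tnfaip3, which encodes the NF-κB inhibitor A20, had 1.89 and 1.43 CPM in FSK3D and 7.68 and 10.6 CPM in Control (−2.44, SE 0.276, adjusted p = 2.11e-10). Another, 36.4 kb from the cytokine receptor kinase gene Jak1, had 2.01 and 3.09 CPM in FSK3D and 11.2 and 14.5 CPM in Control (−2.36, SE 0.254, adjusted p = 3.64e-11). Both FSK3D libraries kept counts at each of these sites. Of the 10 largest falls in the ranking 9 are given, the others being at Pkd1l1 (−2.39), Cdh26 (−2.35), Plce1 (−2.26), Thbs2 (−2.25), Stard13 (−2.25) and Cuedc1 (−2.23). All 19 of these peaks kept their direction in every alternative run, and their call in each run that kept 2 libraries in every group. The runs reuse the libraries that ranked these peaks, so both were favoured beforehand.

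**Figure D2:**
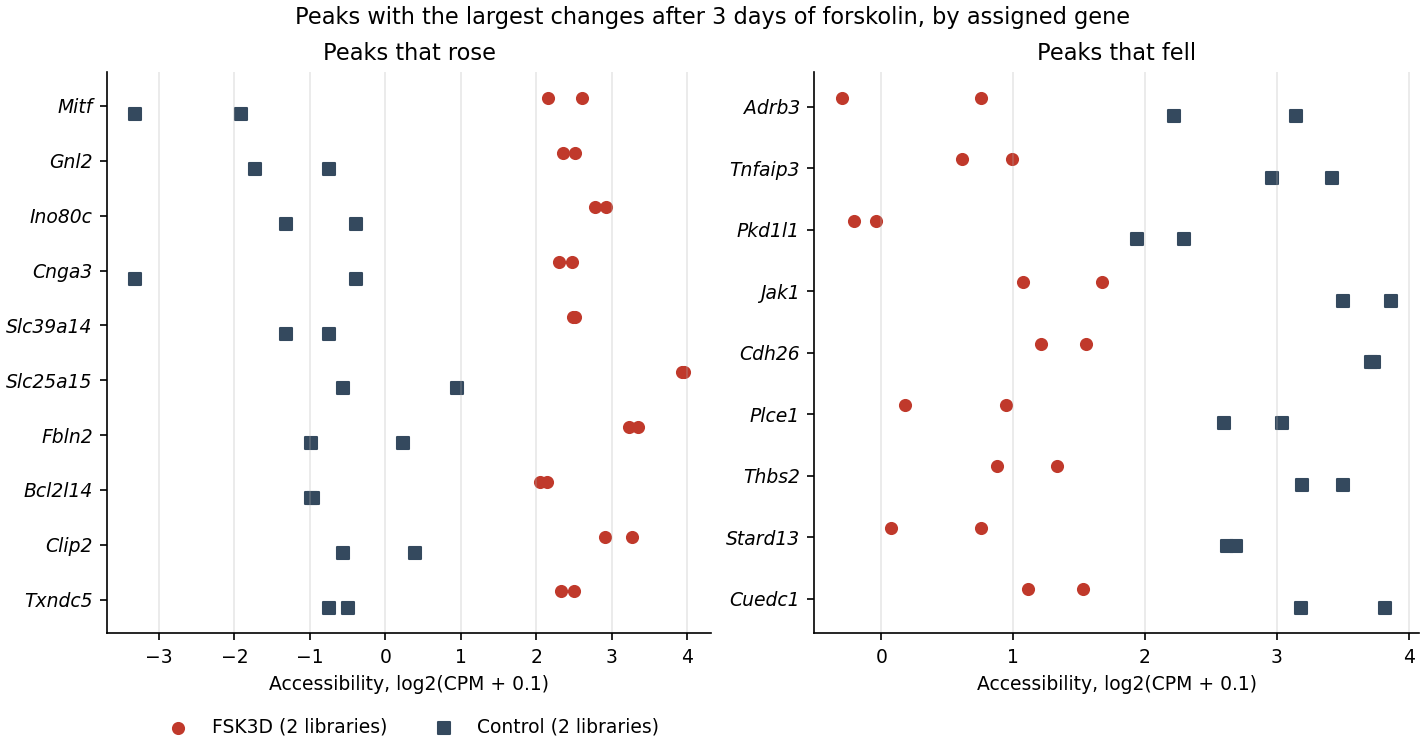
Accessibility of the 10 peaks with the largest rises (left) and 9 of the 10 with the largest falls (right) among called peaks at or above the median level, as log2(CPM + 0.1), with 1 point for each library and the assigned gene at the side. FSK3D libraries (red circles) lie apart from Control libraries (dark squares) at every peak, as the choice of these peaks required. The risen peaks start from Control levels of 0 to 1.82 CPM.

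The forskolin libraries of shorter treatment and the rosiglitazone libraries give these peaks a setting. Comparisons with Control would share its libraries, so only levels are set side by side. The Mitf peak had 6.85 and 6.10 CPM in FSK4h, 5.31 and 5.81 CPM in FSK1D and 0.345 and 0.494 CPM in Rosi3D. The Adrb3 peak had 1.71 and 1.81 CPM in FSK4h, 2.13 and 1.48 CPM in FSK1D and 4.62 and 5.01 CPM in Rosi3D. At both, all FSK4h and FSK1D libraries lay on the same side of the Control libraries as FSK3D. FSK3D was then tested directly against Rosi3D, the other 3-day treatment, which called 25869 peaks (21.7%). Each of the 19 peaks was called in that test too, in the same direction. The peaks were chosen by the same FSK3D libraries, so agreement in direction was favoured beforehand. The difference was smallest at Jak1 (−1.23, adjusted p = 2.66e-04), where Rosi3D had 5.86 and 5.87 CPM, below both Control libraries.

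For each gene, the counts of its assigned peaks were added and tested in the same way. Of 17021 genes tested 910 rose (5.35%) and 1751 fell (10.3%), 15.6% in all. The majority of falls turned with the scaling: rises were 34.2% of gene calls with TMM, 69.2% with library size alone and 67.2% once offsets were trended. The median log2 fold change of all genes was −0.09 with TMM and 0.00 with library size alone, and small falls should be read against that shift. It also turned on single libraries, with 310 genes risen and 261 fallen without S2 and 1161 risen and 4059 fallen without S8. For the lists that follow, the background is therefore 5.35% of genes risen and 10.3% fallen, and the counts under other scalings are given beside them. In a fit of the 4 libraries alone 25 named genes lost their call, Ppargc1a, Itpr1, Rad51b, Egr1, Abhd5 and Il33 among them.

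The cAMP pathway showed rises at its phosphodiesterases and a fall at its receptor. Of 41 tested genes of the pathway 5 rose and 5 fell, and of their 629 tested peaks 89 rose (14.1%) and 37 fell (5.88%), against 8.49% and 5.34% of all peaks. All 5 risen genes encode phosphodiesterases, which break down cyclic nucleotides. Pde4b (chromosome 4, 102087332 to 102607275) had 147 and 141 CPM in FSK3D and 93.4 and 88.0 CPM in Control (0.67, SE 0.0740, adjusted p = 1.16e-05). Of its 37 tested peaks 12 rose, with a median log2 fold change of 1.44, and none fell. One of them covers a start site inside the gene, with 28.3 and 30.3 CPM in FSK3D and 17.8 and 18.7 CPM in Control (0.68, SE 0.135, adjusted p = 1.49e-04). Of the 3 tested start-site peaks of Pde4b only this 1 was called. Pde4d (chromosome 13, 108654177 to 109955969) had 357 and 363 CPM in FSK3D and 285 and 274 CPM in Control (0.37, SE 0.0486, adjusted p = 6.60e-05). With 19 risen peaks of 89 it had more than any other named gene, beside 3 that fell. Pde10a rose too (0.30, adjusted p = 8.86e-04), with 11 of 49 peaks risen. Pde8b (0.44) and Pde8a (0.43) rose with all libraries, and both calls were lost without S2 and without S7, Pde8a also without S1. Of the 89 risen peaks, 19 were at Pde4d, 12 at Pde4b and 11 at Pde10a.

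Adrb3 (chromosome 8, 27225776 to 27230845) had 11.0 and 12.2 CPM in FSK3D and 26.3 and 27 CPM in Control, the largest fall among named genes (−1.21, SE 0.140, adjusted p = 1.84e-05). The FSK3D libraries lay well under both Control libraries. Of its 8 tested peaks 5 fell, the start-site peak among them, with 2.07 and 3.57 CPM in FSK3D and 6.37 and 6.04 CPM in Control (−1.17, SE 0.278, adjusted p = 0.00171). Gnas (−0.37), which encodes the stimulatory G protein, Akap12 (−0.39), a PKA anchor, Prkar1a (−0.37), a PKA regulatory subunit, and Rapgef3 (−0.32), the cAMP sensor EPAC1, were the other falls of the pathway. All 4 calls were lost without S2, and that of Rapgef3 without S1 and with trended offsets as well. Without each library in turn 49 to 85 of the pathway's peaks rose and 19 to 36 fell. Without S2 3 of the pathway's genes rose and 1 fell, and without S8 5 rose and 13 fell.

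Among thermogenic and beige fat genes 7 of 34 rose and 2 fell, and 40 of 346 peaks rose (11.6%) and 13 fell (3.76%). Clstn3, whose adipocyte product shapes lipid droplets, had 66.1 and 68.3 CPM in FSK3D and 43.3 and 50 CPM in Control (0.52, SE 0.0920, adjusted p = 9.06e-04). Ppargc1a (chromosome 5, 51454249 to 52115853) had 296 and 277 CPM in FSK3D and 216 and 244 CPM in Control (0.32, SE 0.0600, adjusted p = 0.00170). Of its 52 peaks 10 rose and 1 fell, the most significant rise being a body peak with 23.6 and 20.8 CPM in FSK3D and 9.40 and 10.3 CPM in Control (1.17, SE 0.150, adjusted p = 1.27e-08). None of the risen peaks was at a start site. With start-site peaks only the gene's value was −0.26 and not called. That value rested on 1 peak, with 1.12 and 0.713 CPM in FSK3D and 0.809 and 1.41 CPM in Control. Its SE of 0.647 is too large to tell a rise of the gene's size from none. Ucp1 (chromosome 8, 83290348 to 83298456) rested on 3 peaks upstream of the gene with low counts. It had 7.09 and 9.27 CPM in FSK3D and 4.45 and 3.64 CPM in Control (1.01, SE 0.225, adjusted p = 0.00525), a call lost without S2 (adjusted p = 0.0972). The peak 2.33 kb from the gene had 2.95 and 2.93 CPM in FSK3D and 0.505 and 0.992 CPM in Control (1.93, SE 0.419, adjusted p = 5.70e-04), and its Rosi3D values were 4.34 and 2.90 CPM. Cidea (0.02, adjusted p = 0.924), a lipid droplet gene of brown fat, and Dio2 (0.03, adjusted p = 0.970), the thyroid hormone activating deiodinase with 1 tested peak, did not pass. Over the list, 3 genes rose without S1 and 3 without S2, against 9 when scaled by library size alone and 10 once offsets were trended. Its risen peaks were 20 to 36 without each library in turn.

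**Figure D3:**
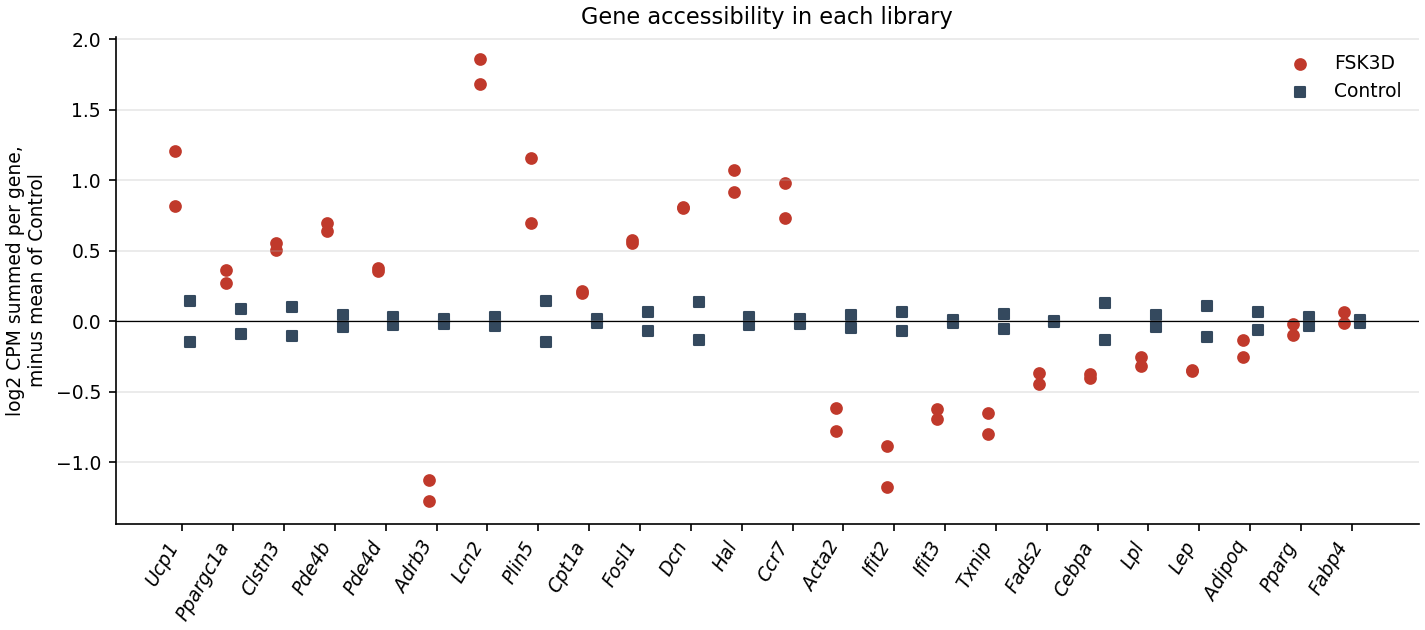
Gene accessibility in each library as log2 CPM minus the mean of Control, for 24 named genes, FSK3D libraries as red circles to the left and Control libraries as dark squares to the right. By fold change Lcn2, Ucp1 and Hal stand highest and Adrb3 and Ifit2 lowest, while Pparg and Fabp4 had log2 fold changes of −0.06 and 0.03.

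Of the CREB target and immediate-early genes, which respond first to a cAMP pulse, 20.8% were called at 3 days, against 15.6% of all tested genes. Of 24 genes 1 rose and 4 fell, though 25 of their 188 peaks rose (13.3%) and 11 fell (5.85%). Both counts moved with the setting: 4 genes rose and 2 fell once offsets were trended, and the same numbers with library size alone. Without S2 11 of these peaks rose and 4 fell, and without S8 19 rose and 19 fell. Fosl1, an AP-1 subunit, had 60.3 and 59.3 CPM in FSK3D and 42.3 and 38.5 CPM in Control (0.57, SE 0.0996, adjusted p = 8.86e-04). Egr1 (−0.40, adjusted p = 0.00236) and Per1 (−0.22, adjusted p = 0.0151) fell. The call on Per1 was lost without S2 (0.153) and without S7 (0.0750), and with library size alone (0.156) or trended offsets (0.122). Nr4a1, an orphan receptor induced by CREB, had 196 and 213 CPM in FSK3D and 211 and 222 CPM in Control and did not pass (−0.09, adjusted p = 0.362). Along the time course its start-site peak had 35.8 and 38.5 CPM in Control, 67.5 and 65.6 CPM in FSK4h, 44.9 and 47.2 CPM in FSK1D and 44.2 and 44.1 CPM in FSK3D, and the 3-day difference from Control did not pass (0.25, adjusted p = 0.172). The same difference passed when scaled by library size alone (0.35, adjusted p = 0.0162) and once offsets were trended (0.41, adjusted p = 0.00135).

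Of the inflammatory genes on the NF-κB list 20.8% were called, and of the interferon response genes 33.3%, against 15.6% of all tested genes. On the NF-κB list 4 of 24 genes rose and 1 fell, with 30 of 230 peaks risen (13.0%) and 12 fallen (5.22%). Of these genes 9 rose and none fell with library size alone, while without S8 4 rose and 5 fell. Lcn2 rested on its start-site peak, given above with its sequence. Il33, an alarmin cytokine gene, had 64.2 and 57.7 CPM in FSK3D and 44.8 and 45.9 CPM in Control (0.43, SE 0.0914, adjusted p = 0.00399). Ptges, the gene of prostaglandin E synthase, rose by 0.36 (adjusted p = 0.00607), a call lost without S2 (0.0861). On the interferon list 6 of 21 genes fell and 1 rose, with 10 of 76 peaks fallen (13.2%) and 4 risen (5.26%). Ifit2 had 30.9 and 25.2 CPM in FSK3D and 54.3 and 59.8 CPM in Control (−1.02, SE 0.133, adjusted p = 5.94e-05), and both of its start-site peaks fell. Ifit3 had 18.9 and 18.0 CPM in FSK3D and 29.3 and 28.9 CPM in Control (−0.66, SE 0.115, adjusted p = 8.83e-04). Ifih1, a sensor of viral RNA, fell by 0.50 (adjusted p = 0.0102), a call lost without S1 (0.0818). With library size alone 3 interferon genes fell, and without S2 or S7 3 fell as well. The fallen peaks of the list were 6 with library size alone and 5 without S2. Ifit1, with 1 peak, was the gene that rose (1.17), and it was not called without S1, S2 or S7.

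Falls among genes of adipocyte identity depended on the setting. Of 25 tested genes 8 fell and 1 rose, and 29 of 280 peaks fell (10.4%) and 18 rose (6.43%). Scaled by library size alone, 4 genes fell and 2 rose, and 20 peaks fell and 23 rose. None of the 8 falls was called without S2, while 11 genes fell without S8. Cebpa, a transcription factor of fat cell differentiation, had 128 and 130 CPM in FSK3D and 154 and 185 CPM in Control (−0.39, SE 0.0829, adjusted p = 0.00377). Without S2 its adjusted p was 0.133. Lpl, lipoprotein lipase, fell by 0.28 (0.0951 without S2). Lep, the leptin gene, fell by 0.35 (adjusted p = 0.0104, 0.201 without S2 and 0.0531 with trended offsets), with 3 of 10 peaks fallen and 1 risen. The nuclear receptor gene Pparg (−0.06), Fabp4 (0.03), a fatty acid carrier gene, and Adipoq (−0.19) did not pass as genes. Adipoq holds opposite changes, since its start-site peak fell while a peak 1.68 kb outside the gene rose, with 14.3 and 13.4 CPM in FSK3D and 7.98 and 7.77 CPM in Control (0.82, SE 0.178, adjusted p = 5.67e-04). Pparg too had 1 risen and 2 fallen peaks of 24. The risen one covers the most downstream of its listed start sites, with 10.8 and 13.8 CPM in FSK3D and 6.87 and 9.10 CPM in Control (0.60, SE 0.188, adjusted p = 0.0212), a call lost without S1 (0.236) and without S8 (0.193).

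Lipid metabolism split by gene. On the lipolysis and lipid droplet list 4 of 17 genes rose and 4 fell, with 17 of 153 peaks risen (11.1%) and 7 fallen (4.58%). Of these genes 5 rose and 1 fell with library size alone, and 1 rose and none fell without S2. Abhd5, the coactivator of adipose triglyceride lipase, had 163 and 175 CPM in FSK3D and 127 and 135 CPM in Control (0.36, SE 0.0644, adjusted p = 9.79e-04). Its strongest peak, in the gene body, had 18.3 and 21.5 CPM in FSK3D and 7.88 and 5.29 CPM in Control (1.61, SE 0.170, adjusted p = 1.96e-11). Plin5, a droplet protein that tethers mitochondria, rested on 1 start-site peak with 4.90 and 6.73 CPM in FSK3D and 3.34 and 2.73 CPM in Control (0.93, adjusted p = 0.0195 as a gene), a call lost without S2 (0.183) and without S8 (0.0817). Plin1, the main droplet coat protein of adipocytes, fell by 0.41 (adjusted p = 0.0158), a call lost without S2 (0.263) and without S7 (0.0685). On the fatty acid oxidation list 14 of 101 peaks rose (13.9%) and 2 fell (1.98%), while 1 of 23 genes rose and 3 fell. With library size alone 3 of these genes rose and none fell, and without S8 7 genes and 8 peaks fell. Cpt1a, which admits fatty acids to mitochondria, rose by 0.21 (adjusted p = 0.0241). The call was lost without S1 (0.0991), S2 (0.112) or S7 (0.0600) and in DESeq2, but a peak in its body had 10.7 and 8.56 CPM in FSK3D and 3.94 and 3.80 CPM in Control (1.32, SE 0.211, adjusted p = 2.60e-06). The falls of Eci1 (−0.32) and Hadhb (−0.51), enzymes of β-oxidation, were lost without S2 (0.208 and 0.263) and without S7 (0.0759 and 0.172), and with library size alone. That of Eci1 was also lost with trended offsets (0.0988). Pdk4, the kinase that spares glucose by blocking pyruvate dehydrogenase, did not pass as a gene (0.08, adjusted p = 0.412), although 3 of its 11 peaks rose. It passed when scaled by library size alone (0.18, adjusted p = 0.0398) and once offsets were trended (0.17, adjusted p = 0.037).

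De novo lipogenesis had 5 falls and 1 rise among 19 genes, with 18 of 186 peaks risen (9.68%) and 14 fallen (7.53%). Its fallen genes were 2 with library size alone, 2 without S2 and 10 without S8. The desaturase genes Fads1 and Fads2 fell in every scaling and without each library. Fads2 had 96.1 and 101 CPM in FSK3D and 131 and 130 CPM in Control (−0.41, SE 0.0718, adjusted p = 8.86e-04), and Fads1 had 94.4 and 97.8 CPM in FSK3D and 131 and 126 CPM in Control (−0.42, SE 0.0712, adjusted p = 7.56e-04). Insig1, a brake on SREBP, fell by 0.21, a call lost without S2 (0.117) and with library size alone. Of 24 genes of glucose and insulin signalling 7 fell and none rose, Irs1 (−0.30), Igf1r (−0.32) and Tbc1d4 (−0.34) with the smallest p, and none of the 7 was called without S2. Of their 363 peaks 32 rose (8.82%), near the background of 8.49%, and 29 fell (7.99%), against 5.34% of all peaks. Scaled by library size alone, 3 of these genes rose and 4 fell, and 45 peaks rose and 18 fell.

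Clock genes had 7 falls among 20 and no rise, although 27 of their 240 peaks rose (11.2%) and 13 fell (5.42%). Ciart, a repressor of the clock with 1 peak, had 71.2 and 78.7 CPM in FSK3D and 105 and 99.8 CPM in Control (−0.45, SE 0.0818, adjusted p = 0.00110). Tef, a clock output factor, had 287 and 320 CPM in FSK3D and 378 and 393 CPM in Control (−0.35, SE 0.0609, adjusted p = 9.08e-04). Cry2 fell by 0.32 (adjusted p = 0.00714, 0.0576 without S2 and 0.0522 with trended offsets). With library size alone 3 clock genes fell and 2 rose, and without S2 2 fell. Without S8 11 clock genes fell, and 25 of their peaks rose and 23 fell. Of 23 progenitor and fibroblast genes 2 rose and 7 fell, with 15 of 207 peaks risen (7.25%) and 21 fallen (10.1%). With library size alone 1 of these genes fell, and 18 of the peaks rose and 14 fell. Dcn, the gene of the matrix proteoglycan decorin, had 42 and 41.8 CPM in FSK3D and 26.3 and 21.8 CPM in Control (0.81, SE 0.126, adjusted p = 3.00e-04), with 5 of 13 peaks risen and none of them at the start site. Acta2, smooth muscle actin, had 30.0 and 33.7 CPM in FSK3D and 49.9 and 53.2 CPM in Control (−0.70, SE 0.109, adjusted p = 2.86e-04). Col3a1, a fibrillar collagen gene, rose by 0.42 (adjusted p = 0.00948), a call lost without S2 (0.0906) and S7 (0.0779).

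Genes of the MiT/TFE and lysosome list and of oxidative phosphorylation had few calls with all libraries. In the first, 2 of 18 genes fell and none rose: Atp6v1h (−0.44, adjusted p = 0.00245), a proton pump subunit, and Gpnmb (−0.39, adjusted p = 0.0119). The call on Gpnmb was lost without S1 (0.0581) and S2 (0.0848) and with trended offsets (0.0531). Their 152 peaks were near the background, with 13 risen (8.55%) and 9 fallen (5.92%). In the second, 1 of 23 genes rose and 1 fell, with 4 of 65 peaks in each direction (6.15%). Without S8 5 genes and 17 peaks of the first list fell, and 8 genes and 12 peaks of the second. Cox4i1 (0.38) was not called without S1 (0.0920) or S2 (0.0575), and Atp5o (−0.36) not without S2 (0.0993) or S7 (0.0594).

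**Figure D4:**
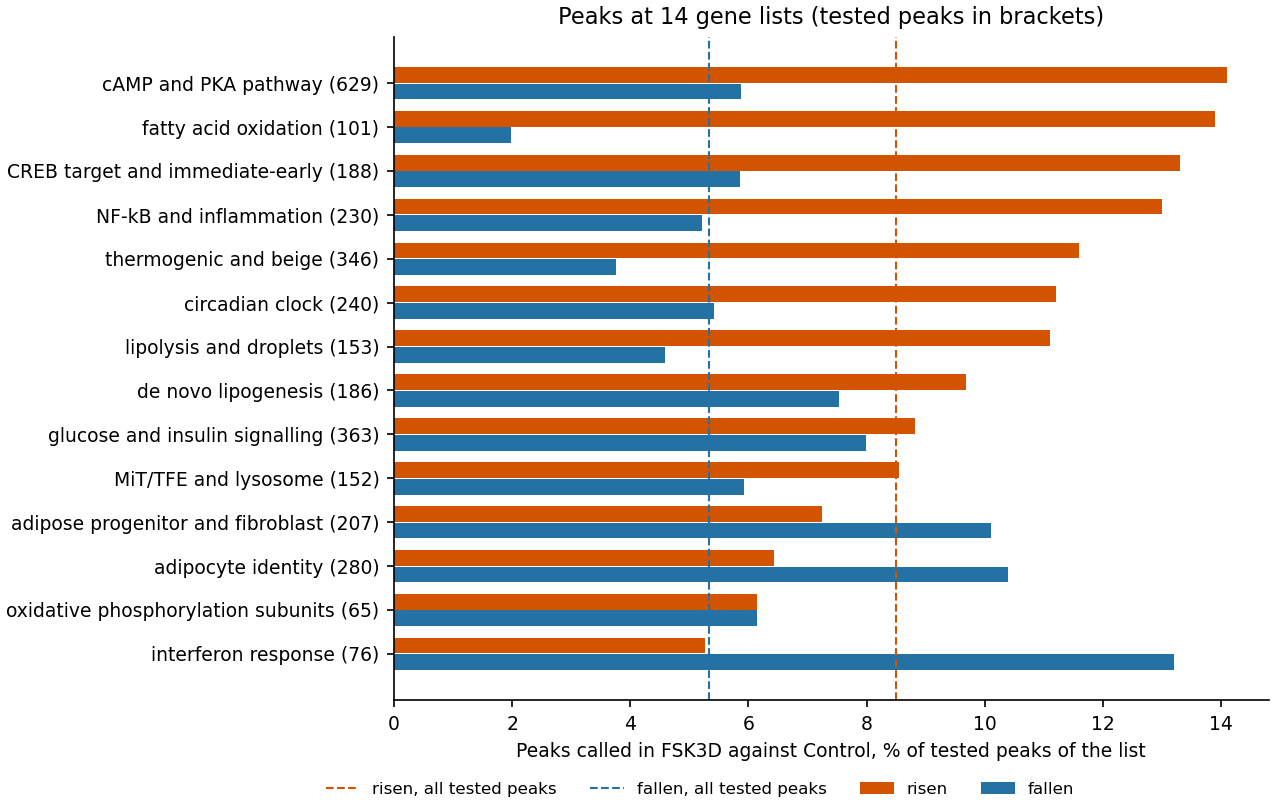
Share of the tested peaks of each of 14 gene lists that rose (orange) or fell (blue) in FSK3D against Control, in percent, with the number of tested peaks in brackets and dashed lines at the shares of all tested peaks (8.49% risen, 5.34% fallen). With all libraries the cAMP list has the highest risen share (14.1%) and the interferon list the highest fallen share (13.2%), and the lists differ in size and in genes that hold many peaks.

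Genes with 3 or more tested peaks were ranked under the same limits on overlap and level. Outside the lists the largest rise in this ranking was at Hal, the gene of histidine ammonia-lyase, which had 42.5 and 38.2 CPM in FSK3D and 20.6 and 19.8 CPM in Control (1.00, SE 0.121, adjusted p = 2.29e-05), and its start-site peak rose by 1.33. Fam110c had 82.3 and 79.4 CPM in FSK3D and 39.8 and 41.4 CPM in Control (0.99, SE 0.0896, adjusted p = 1.36e-06), with 7 of 16 peaks risen. Ccr7, a chemokine receptor gene of lymphocytes and dendritic cells, had 49.8 and 42 CPM in FSK3D and 25 and 25.6 CPM in Control (0.86, SE 0.112, adjusted p = 5.49e-05). Its strongest peak lay 11.5 kb outside the gene, with 7.80 and 6.18 CPM in FSK3D and 0.707 and 1.74 CPM in Control. Ptpn22 (0.85), a phosphatase of immune signalling, Osbp2 (0.80), a sterol-binding protein, Lrrc7 (0.77) and Slc39a14 (0.76) followed. All of these calls held in every scaling and without each library. With start-site peaks only, the calls on Osbp2 (0.25, adjusted p = 0.508) and Slc39a14 (0.07, adjusted p = 0.772) were lost.

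In the same ranking the largest falls after Ifit2 were at Mylk3 (−0.92), a kinase of cardiac myosin, Gpr37l1 (−0.89), Comp (−0.86), a cartilage matrix protein, Spata4 (−0.80), Tmem232 (−0.77), Slco2b1 (−0.76), an organic anion transporter, and Txnip (−0.73). Txnip restrains glucose uptake, and it had 113 and 125 CPM in FSK3D and 189 and 204 CPM in Control (SE 0.0738, adjusted p = 4.88e-06), with 5 of 6 peaks fallen. Its FSK3D libraries lay under both Control libraries, as the ranking required. Comp had 40.9 and 47.0 CPM in FSK3D and 76.4 and 82.6 CPM in Control (SE 0.106, adjusted p = 3.03e-05). These calls too held in every scaling and without each library. With start-site peaks only, the calls on Mylk3, Comp, Spata4 and Tmem232 were lost.

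Some long genes held many changed peaks. After Pde4d the most risen peaks were at Chst11, a chondroitin sulfotransferase gene, with 15 of 54 risen and none fallen (gene 0.36, SE 0.0497, adjusted p = 9.73e-05), and at Itpr1, an endoplasmic reticulum calcium channel gene, with 13 of 37 risen and 1 fallen (0.26, adjusted p = 0.00314). With start-site peaks only, the value of Itpr1 was −0.30. The most fallen peaks were at Trabd2b, a Wnt-degrading protease gene, with 15 of 44 fallen and none risen. It had 186 and 176 CPM in FSK3D and 248 and 253 CPM in Control (−0.47, SE 0.0560, adjusted p = 2.25e-05). Rad51b, of DNA repair, had 12 fallen and 5 risen peaks of 77 (−0.26, adjusted p = 0.00183, 0.0625 with library size alone). Maml3, a Notch coactivator gene, had 9 fallen and 6 risen peaks of 53 (−0.16, adjusted p = 0.0216), a call lost without S2 (0.136), without S7 (0.112) and with library size alone (0.451) or trended offsets.

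The letters of start-site windows differed with the direction of the peak over them. RefSeq lists 32851 windows of 300 bases, 250 before and 50 after a start site of GRCm38.p6. One window was taken for each peak that covered at least 150 bases of any, which left 195 risen, 919 fallen and 10167 uncalled peaks. The share with the AP-1 letters TGANTCA, which read the same on both strands, was 33.8% for risen peaks (95% Wilson interval 27.6 to 40.7), 4.13% for fallen peaks (3.03 to 5.62), 6.70% for uncalled peaks and 7.91% over 30746 non-overlapping listed windows. AP-1 is the dimer of Fos and Jun proteins. Risen windows were poorer in GC, at a median of 50.7% against 60% for fallen and 61.0% for uncalled windows. Among windows under 55% GC the AP-1 share was 34.8% for risen, 7.04% for fallen and 13.9% for uncalled peaks, and 10.8% over all listed windows. It was 24.6% for risen peaks without S2 and 30.1% to 36.7% without each of the other libraries. For fallen peaks it was 9.96% without S7 and 8.51% without S2.

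Other motifs were searched on both strands in the same windows. The Nr4a letters AAAGGTCA were in 5.13% of risen (2.81 to 9.18), 1.20% of fallen and 0.885% of uncalled windows, and in 1.48% of all listed windows. Those of C/EBP, TTGCGCAA, TTGCACAA or TTGCATAA, were in 6.15% of risen (3.55 to 10.4), 2.39% of fallen and 1.74% of uncalled windows, and in 1.92% of all. Among windows under 55% GC the C/EBP share was 5.93% for risen, 3.87% for fallen and 3.52% for uncalled peaks, and 2.49% over all listed windows, and the Nr4a share was 5.19%, 2.11% and 1.76%, and 2.06% over all. The full cAMP response element TGACGTCA was in 2.05% of risen (0.801 to 5.15), 1.85% of fallen and 3.12% of uncalled windows, and in 1.76% of all. The interferon response motif was in 2.05% of risen, 4.13% of fallen (3.03 to 5.62) and 2.88% of uncalled windows, and in 3.46% of all. The MiT/TFE letters TCACGTGA were in 1.03% of risen, 2.39% of fallen and 1.65% of uncalled windows, and in 0.956% of all. The DR1 and NFI motifs, which bind PPAR-RXR and nuclear factor I, were in no risen or fallen window. They were in only 0.0423% (DR1) and 0.0358% (NFI) of all listed windows, too few for their absence to tell anything. Of 11281 windows 6 held letters shared by matches to different motifs. A match describes the letters and does not show a factor bound there, and the level of the peaks, which differs between risen and uncalled sites, was not matched.

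**Figure D5:**
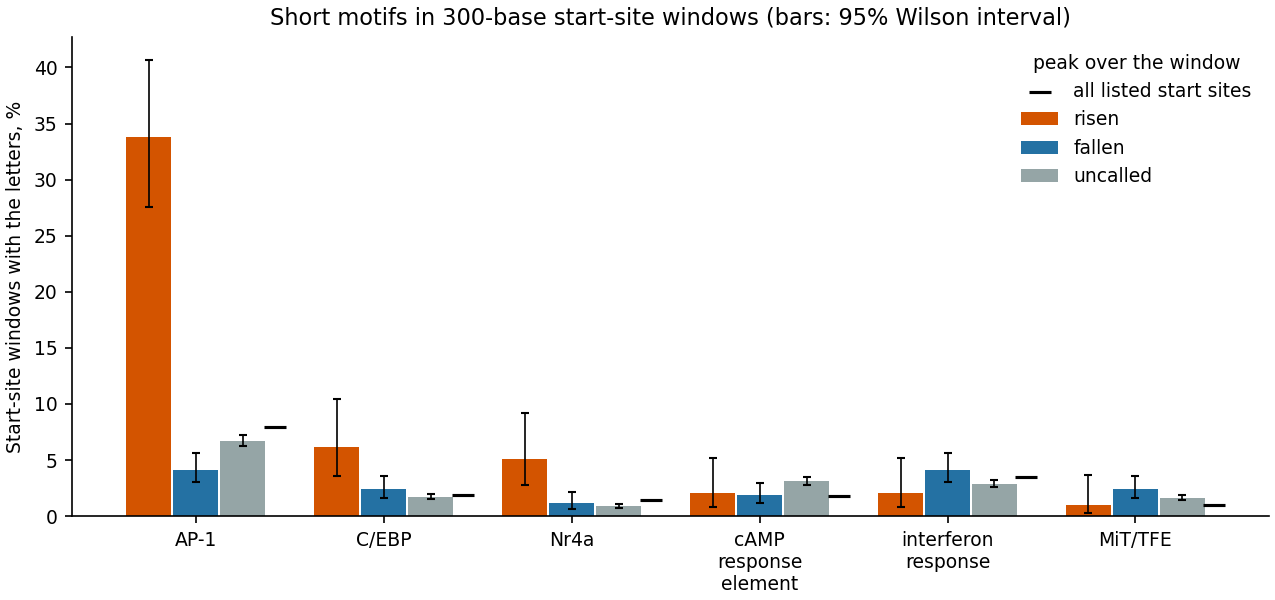
Share of 300-base start-site windows that hold each motif, in percent, for windows under risen (orange), fallen (blue) and uncalled (grey) peaks, with 95% Wilson intervals for counting error, and the share over all listed windows as a black dash. The AP-1 bar of risen windows stands at 33.8%, with an interval above those of fallen and uncalled windows.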

How the data were processed

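Per the labels' protocols, sorted nuclei were processed with a Nextera kit and libraries amplified for 12 cycles. The authors deposited raw counts per peak, without normalization, in 1 table for all libraries. Per the submitters' processing notes, the tools were Bowtie2, featureCounts, MACS2, fastp, Picard, SAMtools and deepTools, with the mouse builds GRCm38 and mm10; versions, the pooling of reads for peak calling, the handling of duplicates and the transposase offset are not given in the sources used here. A column is named by its group and a number from S1 to S10.

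The peak test used edgeR 4.0.16, run in R 4.3.3 (filterByExpr, TMM, robust quasi-likelihood F test) in 1 fit over all 10 libraries, with the contrast FSK3D minus Control, Benjamini-Hochberg adjustment over all peaks and a threshold of 0.05. Standard errors of log2 fold changes came from the F statistic. The biological coefficient of variation was 0.163. The test was also tried on simulated counts, which held no difference between libraries of a group beyond the fitted spread. No result given here rests on that trial. Peaks within 1 kb of a start site in the RefSeq promoter table (or of either gene end for genes without one) went to that gene, then to the gene body, then to the nearest gene end within 50 kb; 103329 of 122984 peaks were assigned. Gene sums took their library sizes and scaling factors from the peak table. Alternatives were library size alone, trended offsets (loess span 0.3), DESeq2 1.42.0, no filter, only the 4 libraries compared, each library left out, start-site peaks only and assignment within 10 kb. Shares of motifs and of list peaks under these settings were added after seeing the data. Wilson intervals came from SciPy 1.17.1 and cover counting error only.

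Named peaks and genes were, among called ones without overlap of libraries and at or above the median level, the 10 peaks and 8 genes with the largest changes in each direction; the 4 genes with most risen and most fallen peaks; up to 3 called members of each of 14 lists by adjusted p; and a fixed set from Ucp1 to Pdk4, always given. The list member Pref1 is not in the annotation. The members, lists and rule were chosen with earlier results of these data known. Other genes, such as Pde10a, Gnas and Ifit1, were named after their values were seen. The results of 2 genes that the rule named are not reported here; they stay in the fits and in the counts of lists.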

Additional observations from a re-analysis of the deposited data

Results flagged for a closer look

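The 19 peaks described above, ranked among called peaks at or above the median level, were compared between the 2 treatments of 3 days, and the difference FSK3D minus Rosi3D passed edgeR's test at each, adjusted over all peaks. Both FSK3D libraries lay beyond both Control libraries at each, as the choice of these peaks required. Among risen peaks the difference on the log2 scale was 3.60 at Mitf, 2.60 at Gnl2, 5.69 at Ino80c, 2.97 at Cnga3, 3.22 at Slc39a14, 3.78 at Slc25a15, 2.06 at Fbln2, 2.59 at Bcl2l14, 2.85 at Clip2 and 3.84 at Txndc5. The adjusted p ranged up to 3.46e-07. Among fallen peaks it was −2.0 at Adrb3, −2.94 at Tnfaip3, −3.02 at Pkd1l1, −1.23 at Jak1, −2.74 at Cdh26, −1.98 at Plce1, −1.91 at Thbs2, −2.21 at Stard13 and −1.58 at Cuedc1, with adjusted p up to 2.66e-04. The comparison with Control and that with Rosi3D share the FSK3D libraries.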

How the results depend on the processing

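No paired analysis was possible because the column names carry running numbers and no replicate numbers. Called peaks numbered 9841 with DESeq2 and 8612 to 17356 without each library; risen peaks 5902 and 5235 to 9655; fallen peaks 3939 and 2957 to 7701, and 4079 with library size alone. Called genes numbered 541 in a fit of the 4 libraries alone, 223 with start-site peaks only and 571 to 5220 without each library. Risen genes were 1664 with library size alone, 1602 with trended offsets, 288 with 4 libraries, 77 with start-site peaks and 310 to 1161 without each library; fallen genes were 741, 783, 253, 146 and 261 to 4059. The number of peaks changed, FSK3D versus Rosi3D, was 16864 with DESeq2 and 17150 to 26713 without each FSK3D or Control library; it could not be fitted with only the 4 libraries. Start sites were 13.0%, 8.11%, 20.1% and 7.79% of fallen peaks with library size, trended offsets, DESeq2 and 4 libraries, and 7.47% to 48.8% without each library; of risen peaks, 3.35% with library size, 3.88% with trended offsets and 2.62% to 3.25% without each library. The AP-1 share of risen windows was 27.5% with trended offsets and 24.6% to 36.7% without each library; of fallen windows it was 5.98%, 6.87% and 6.58% with library size, trended offsets and 4 libraries, and 3.31% to 9.96% without each library. The cause of these moves was not tested. Start-site peaks alone hold fewer counts and the fit of 4 libraries holds fewer samples, and the part of either was not tested.

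Of 59 named genes called, 39 lost the call in at least 1 alternative, 21 of them without S2, 25 with 4 libraries and 30 with start-site peaks only; of 82 named peaks called, 16 did. With start-site peaks only, values turned to −0.91 for Dcn, −0.30 for Itpr1, 0.12 for Maml3, −0.26 for Ppargc1a, −0.05 for Cpt1a and −0.28 for Il33, none called; with assignment within 10 kb Cox4i1 turned to −0.07. With 2 libraries a group, small changes at peaks of low counts may have been missed. The smallest change that could be called at such peaks was not tested.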

Other observations

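A peak over the start site of Ogn, a proteoglycan gene, had 1.65 and 1.74 CPM in FSK3D and 4.35 and 5.21 CPM in Control (−1.50, SE 0.330, adjusted p = 6.74e-04 in edgeR). The fall was called without each library in turn, and Ogn was chosen after its values were seen. Among start sites that rose, one of Ampd3, a purine nucleotide deaminase gene, had 3.13 and 2.69 CPM in FSK3D and 0.303 and 0.661 CPM in Control (2.54, SE 0.469, adjusted p = 4.66e-05), and one of Plekha8, a lipid transfer protein gene, had 4.31 and 4.36 CPM in FSK3D and 1.01 and 0.579 CPM in Control (2.47, SE 0.374, adjusted p = 8.44e-07). Both were called without each library in turn.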
